A study of Danio rerio with 8 samples.

Results

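Leukocyte marker genes are genes whose transcripts define white blood cells, and here their reads were followed in RNA from epicardial cells, a population that should hold few or none of those cells. The list has 39 gene symbols, split by what is known of them into 12 pan-leukocyte, 10 macrophage, 7 neutrophil and 10 lymphocyte genes. A count row matched 36 of the 39, among 37685 symbols in all once rows that share a symbol were summed. No row matched was, laptm5 or mfap4.

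Tested libraries came from tcf21:nEGFP-positive cells of the ventricles of cxcr4a mutants carrying the um20 allele, whose treatment is labelled as coronary loss, with 4 libraries. Their controls were wild type, also with 4 libraries. All fish carried the Tg(tcf21:nEGFP) reporter, were 70 days post-fertilization and had similar body size, and their cells were sorted by flow cytometry for the reporter. tcf21 is a transcription factor gene that marks epicardium and epicardium-derived cells, and the sources used here mention no gate against blood cells. Whether a library is 1 fish or a pool is not labelled either, and the p-values therefore speak only to the scatter among 8 libraries, some of which may be technical.

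Leukocytes of fish fall into the same broad lineages as those of mammals. Macrophages and neutrophils are myeloid cells that depend on PU.1 transcription factors and engulf microbes and debris, and resident macrophages are a normal part of the heart wall, some of them lying in or next to the epicardium. Lymphocytes are T, B and natural killer cells, and their defining genes include antigen receptor signalling proteins and the recombinases that assemble receptor genes.

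Each library held 18891079 to 25513003 counts in mutants and 19584695 to 28471786 in wild type. Mitochondrial genes gave 30.8% and 14.9% of the counts in wild types 1 and 2, and 5.53% to 12.8% in the other libraries. Several markers of epicardium were present in every library, and others of the same list were not. tbx18 was at 696, 698, 831 and 773 CPM (read counts scaled to a common library total with TMM factors, not corrected for gene length) in mutants 1 to 4, against 1000, 1117, 650 and 538 CPM in wild types 1 to 4, and tcf21 was between 73.0 and 142 CPM in all 8 libraries. mslna was listed at 0 in 6 of 8 libraries, and upk1b had no row. aldh1a2, another marker of epicardium, was near 0, at 0.0952 to 0.260 CPM in mutants and 0.0898 to 0.263 CPM in wild type. cxcr4a, the mutated gene, had 86, 229, 171 and 447 counts in mutants, against 219, 12, 118 and 27 counts in wild types, which does not check the genotype, since a mutant transcript can still be counted.

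Reads of leukocyte genes were present in every library, and the libraries of a genotype lay much further apart than the means of the genotypes. The 36 genes summed to 2189, 589, 1886 and 3676 CPM in cxcr4a mutants 1 to 4, against 2478, 1325, 2966 and 2122 CPM in wild types 1 to 4. Mutant 2 was below every other library and mutant 4 above every other, so the wild-type libraries lay inside the range of the mutants. The means were 2085 ± 1267 CPM in mutants and 2223 ± 691 CPM in wild types (SD, n = 4 each). A second sum left out arpc1b, cyba, cd36, grna.1 and srgn, taken here as also made by other cells. It kept plek and csf1ra, which are noted below as also known from other cells. This sum was 1287, 193, 1204 and 2447 CPM in mutants and 1603, 825, 2117 and 1463 CPM in wild types. Mutant 2 was at 44.4% of the lowest other library with all 36 genes and at 23.4% in the second sum. The tested genes left out were among those least low in mutant 2, so that choice widens its gap. In bulk RNA, fewer cells of a type and less RNA per cell cannot be told apart.

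**Figure D1:**
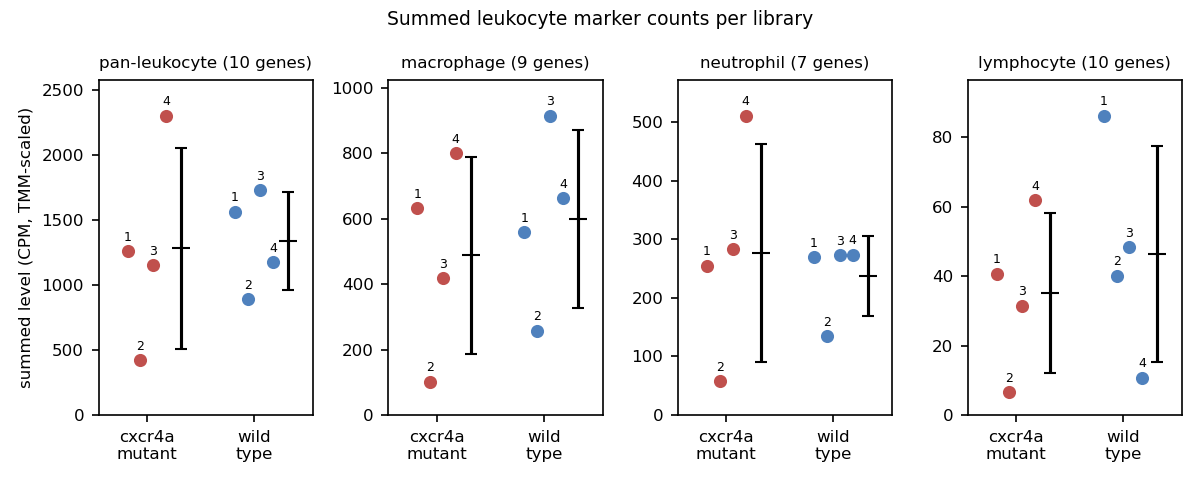
Summed level of each class of leukocyte genes (vertical axis, TMM-scaled CPM, starting at 0) in each library; numbers are library numbers, and black bars give the mean ± SD of 4 libraries. Mutant 2 is the lowest library in all 4 classes, for example 102 CPM of macrophage genes against 258 to 914 CPM in wild type.

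Of the 36 genes, 25 passed the low-count filter and were tested. None was called different between genotypes by edgeR's quasi-likelihood test at a Benjamini-Hochberg adjusted p under 0.05 over all 16631 genes tested, where 0.0481% of genes were called. At an unadjusted p under 0.05 edgeR had 1 of the 25, against 8.64% of all genes; it was higher in mutants, as were 5.09% of all genes, while none was lower, against 3.55%. DESeq2, which called 2.47% of genes, also called none of those for which it gave an adjusted p, with 1 member at an unadjusted p under 0.05, against 9.14% of all genes. limma voom called none of the 25 and 0.0% of all genes, and had 2 of the 25 at that unadjusted level, against 9.65% of all genes. For none of the 25 did the groups fail to overlap, against 6.3% of all genes tested. The median log2 fold change, mutant over wild type, was -0.08 over the 25 genes and 0.01 over all genes tested, with 11 members positive and 14 negative. Standard errors of the members ran from 0.24 to 1.36 with a median of 0.73, against 0.44 over all genes, so differences of modest size could not be told from 0.

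The balance of directions moved with single libraries. Without mutant 2, 19 of the 25 log2 fold changes were positive and their median was 0.29, and without mutant 4 the count was 8 of 25 with a median of -0.64. Across all 8 ways of leaving out 1 library, 7 to 19 of the 25 were positive. No member was called in any of them. Without mutant 1 none had an unadjusted edgeR p under 0.05, against 6.16% of all genes. Without mutant 4 there were 4 of the 25, against 1706 of 17079 genes. Without each other library there were 1 to 3.

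**Figure D2:**
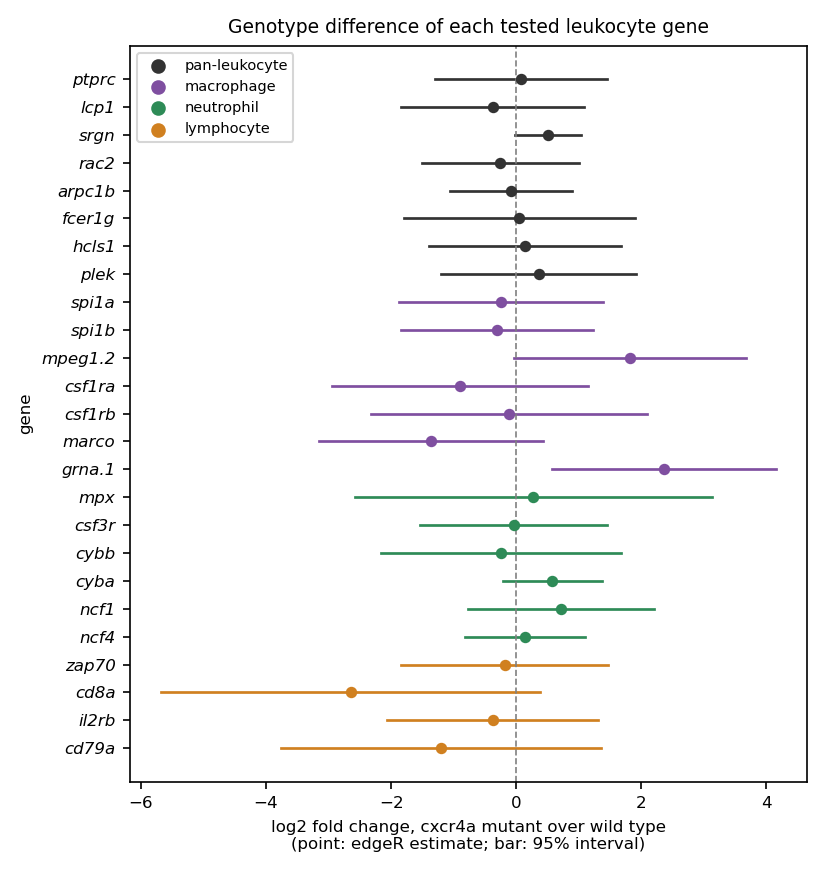
Log2 fold change of each of the 25 tested genes (horizontal axis, mutant over wild type), with the edgeR estimate as a point and its 95% interval as a bar, coloured by class. Intervals of 24 genes include 0, and that of grna.1, from 0.58 to 4.16, does not before adjustment.

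Pan-leukocyte genes encode proteins that nearly all white blood cells use. Of the 8 tested, 5 had positive and 3 negative log2 fold changes, with a median of 0.06 and no call, and the 10 with a row summed to 1262, 423, 1153 and 2303 CPM in mutants, against 1564, 893, 1731 and 1175 CPM in wild types. The phosphatase gene ptprc, which encodes CD45, was at 97.7, 17.9, 111 and 220 CPM in mutants 1 to 4, against 144, 52.1, 149 and 79.5 CPM in wild types 1 to 4. Mutant 4 was highest, mutant 2 lowest, and the groups overlapped. The edgeR estimate of the log2 fold change was 0.07 ± 0.62 (SE, with 4 libraries a group), its 95% interval -1.30 to 1.45 and its adjusted p 0.989.

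lcp1, encoding the actin-bundling L-plastin, showed the same order of the extremes. It was at 258, 31.8, 286 and 642 CPM in mutants 1 to 4, against 395, 283, 554 and 346 CPM in wild types 1 to 4. Mutant 4 had 20.2 times the level of mutant 2, and the log2 fold change was -0.37 ± 0.65 (edgeR adjusted p = 0.924). The same 2 libraries were the highest and the lowest for rac2, a GTPase of leukocyte migration and oxidase assembly, for fcer1g, an adaptor of Fc receptors, for hcls1, a relative of cortactin, and for plek, a substrate of protein kinase C also found in thrombocytes. Their ratios of the highest to the lowest library ran from 10.2 for rac2 to 47.7 for fcer1g.

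arpc1b, a subunit of the Arp2/3 actin complex, is used by many cell types, and it gave 40.0% of the counts of its class. It was at 494, 189, 452 and 918 CPM in mutants and 661, 325, 686 and 494 CPM in wild types, a narrower range of 4.85 times. srgn, encoding the granule proteoglycan serglycin, was narrower still, at 218, 160, 144 and 185 CPM in mutants and 161, 137, 95.1 and 104 CPM in wild types. Mutant 2 was above 3 of 4 wild types for srgn. With its 2 rows summed, srgn differed by 0.51 ± 0.24 on the log2 scale (edgeR adjusted p = 0.592).

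The 2 deposited rows of srgn had genotype estimates of opposite sign, which their sum does not show. The plain row was at 172, 152, 123 and 178 CPM in mutants 1 to 4, against 67.5, 50.4, 48.8 and 52.7 CPM in wild types, so every mutant was above every wild type. When rows were tested as deposited it was called, with a log2 difference of 1.51 ± 0.21 (edgeR adjusted p = 0.0223), the sole member row among those called in that fit, which called 0.35% of its rows. The row srgn_1 was at 47.8, 4.84, 22.0 and 6.34 CPM in mutants and 95.4, 86.8, 45.7 and 52.5 CPM in wild types. Its groups overlapped and it was not called, with a log2 difference of -1.79 ± 0.67 (edgeR adjusted p = 0.369).

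As a share of the gene's reads, the plain row held 78.3%, 96.9%, 84.8% and 96.6% in mutants, against 41.4%, 36.7%, 51.6% and 50.1% in wild types. ncf4, the other tested gene with 2 rows, also split by genotype between its rows, in the opposite direction for the plain row and without a call. Its plain row held 13.9% to 31.1% of the gene's reads in mutants and 54.0% to 68.8% in wild types. How often the rows of other repeated symbols split by genotype was not computed, so the splits do not set these genes apart. No source used here says what sets rows of a symbol apart. A read that could belong to either row makes the single rows uncertain, and also their sum if such reads were left uncounted.

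**Figure D3:**
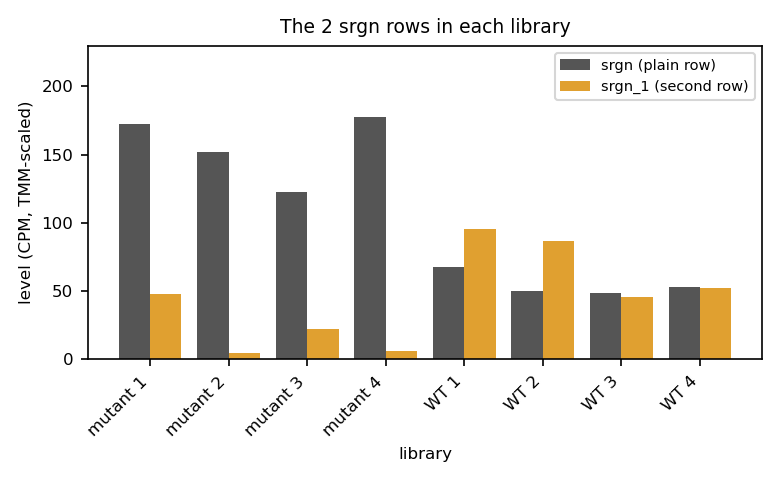
Level of the 2 srgn rows (vertical axis, TMM-scaled CPM, starting at 0) in each library, mutants left and wild types right. The plain row is at 123 to 178 CPM in mutants and 48.8 to 67.5 CPM in wild types, while srgn_1 is lower in mutants except that mutant 1, at 47.8 CPM, is above wild type 3, at 45.7 CPM.

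The remaining pan-leukocyte members had too few reads to test. coro1a, encoding the actin regulator coronin, had 15 counts over the mutants and 8 over the wild types, its 2 rows together. tyrobp, encoding the adaptor DAP12, had 0, 9, 12 and 17 counts in mutants and 7, 0, 3 and 0 counts in wild types. In RefSeq the name was is an older name of wasb, which encodes the Wiskott-Aldrich syndrome protein, an activator of Arp2/3; wasb was looked up after the values were seen. It too was highest in mutant 4 and lowest in mutant 2, at 30.1, 4.06, 37.8 and 43.1 CPM in mutants and 39.3, 10.5, 31.1 and 19.1 CPM in wild types.

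Macrophage genes did not run in 1 direction. Of the 7 tested, 2 had positive and 5 negative log2 fold changes, with a median of -0.24 and no call, and the 9 with a row summed to 632, 102, 418 and 800 CPM in mutants, against 559, 258, 914 and 662 CPM in wild types. spi1a and spi1b encode transcription factors of the PU.1 family, which direct myeloid fate. spi1b was at 46.1, 4.18, 52.4 and 107 CPM in mutants, against 71.2, 43.5, 89.6 and 55.2 CPM in wild types, a log2 difference of -0.30 ± 0.69 (edgeR adjusted p = 0.946). spi1a was at 57.8, 10.7, 136 and 253 CPM in mutants and 118, 68.9, 190 and 163 CPM in wild types. Both were lowest in mutant 2 and highest in mutant 4.

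csf1ra and csf1rb encode receptors for the macrophage growth factors Csf1 and Il34. csf1rb was at 14.0, 0.406, 48.4 and 81.3 CPM in mutants and 45.9, 19.8, 63.8 and 26.3 CPM in wild types, and mutant 2 had 7 counts, the lowest of the 8 by far. csf1ra was at 17.9, 2.09, 46.6 and 86.8 CPM in mutants and 111, 36.8, 17.2 and 122 CPM in wild types. Wild type 3, among the highest libraries for spi1a and csf1rb, was among the lowest for csf1ra. Their log2 differences were -0.90 ± 0.92 for csf1ra and -0.11 ± 0.99 for csf1rb (edgeR adjusted p = 0.843 and 0.989). In zebrafish csf1ra is also known from pigment cells, which this list does not separate.

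marco, a scavenger receptor of resident macrophages, was the most negative of the tested macrophage members. It was at 38.9, 19.7, 106 and 223 CPM in mutants, against 154, 54.5, 522 and 264 CPM in wild types. Wild type 3 was highest and the groups overlapped, and the log2 difference was -1.36 ± 0.80 (edgeR adjusted p = 0.692).

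mpeg1.2 and grna.1 stood apart from the other members by the size of their excess in mutant 1. mpeg1.2 belongs to the genes of perforin-2, a pore-forming protein of macrophages, and was at 332, 51.1, 18.2 and 30.4 CPM in mutants, against 48.0, 27.7, 25.8 and 21.0 CPM in wild types. grna.1, a granulin family gene by its symbol, was at 124, 13.1, 10.2 and 17.7 CPM in mutants and 11.4, 5.71, 5.24 and 9.74 CPM in wild types. For both, mutant 1 stood far above the other 7, and mutant 2 was at or above the middle of them instead of at the bottom.

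The log2 fold change of mpeg1.2 was 1.82 ± 0.83 (edgeR adjusted p = 0.578) and that of grna.1 2.37 ± 0.80 (edgeR adjusted p = 0.448, unadjusted p = 0.0148), the smallest p of the 25. Without mutant 1 they were 0.10 (edgeR adjusted p = 0.996) and 0.75 (edgeR adjusted p = 0.894). The related gene grna, looked up after the values were seen, had 4181, 1343, 5356 and 19352 counts in mutants and 5646, 5312, 19103 and 8556 in wild types. Mutant 4 was highest and mutant 2 lowest for grna, unlike grna.1.

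The other macrophage members were not tested. mpeg1.1, a widely used macrophage marker in zebrafish, had 0 counts over the mutants and 2 over the wild types, its 2 rows together. cd36, a lipid scavenger receptor also found on vessels, had 30 counts in mutants and 13 in wild types. RefSeq gives mfap4 as an older name of mfap4.1, which was looked up after the values were seen and was at 6.43, 1.45, 8.76 and 21.9 CPM in mutants and 18.8, 14.9, 42.3 and 77.6 CPM in wild types. The log2 fold change of mfap4.1 was -1.99 ± 0.77 (edgeR adjusted p = 0.501, unadjusted p = 0.0276), and that of mfap4.3 was -1.97 ± 0.74 (edgeR adjusted p = 0.491). Among the numbered mfap4 genes, mfap4.2, mfap4.6 and mfap4.13 had positive estimates and the others negative ones. Of 11 numbered mfap4 genes with a row, mutant 2 had the lowest count, or shared it, in 10. Some of these were ties, such as mfap4.7 and mfap4.10 at 0 counts in mutants 1 and 2 and wild type 2. Mutant 2 also had the fewest total counts, and the share over all genes was not computed, so the count does not set these genes apart.

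**Figure D4:**
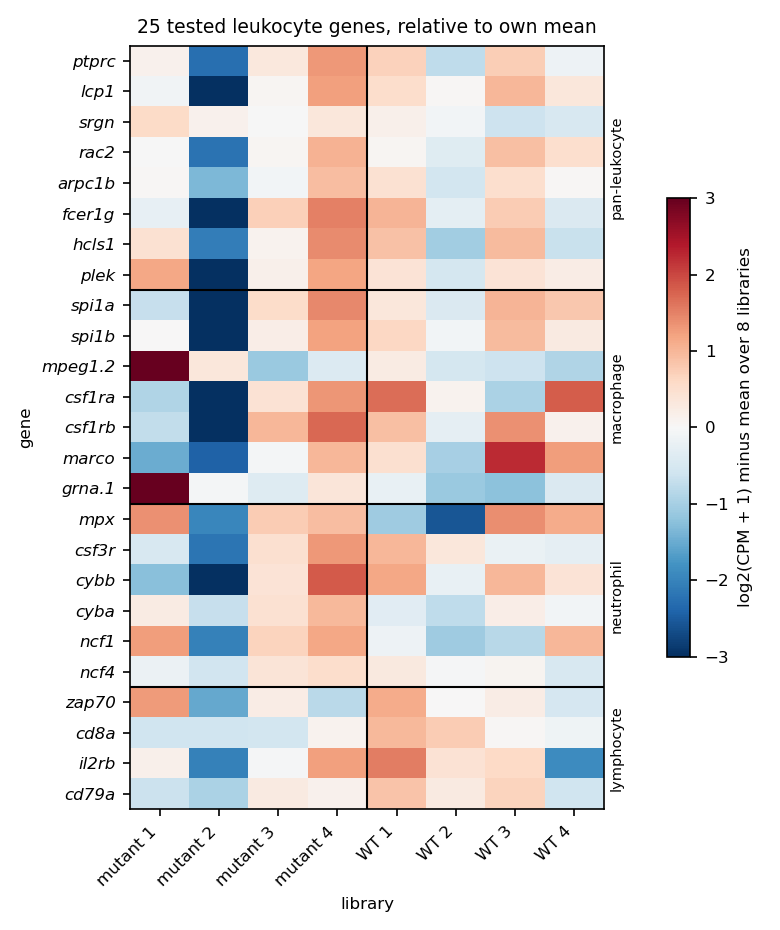
Level of each of the 25 tested genes in each library as log2(CPM + 1) minus the gene's mean over the 8 libraries (colour, limited to 3 in either direction), mutants left of the vertical line. The column of mutant 2 is blue for all but a few genes, and mpeg1.2 and grna.1 are dark red in mutant 1.

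Genes of the neutrophil class include the phagocyte oxidase, which macrophages also use. Of the 6 tested, 4 had positive and 2 negative log2 fold changes, with a median of 0.21 and no call, and the 7 genes summed to 255, 57.5, 284 and 511 CPM in mutants, against 269, 135, 273 and 274 CPM in wild types. cybb, its catalytic subunit, had 522, 84, 1869 and 6320 counts in mutants, against 2592, 1196, 4098 and 1709 counts in wild types, with the extremes again in mutants 2 and 4. cyba, its membrane partner, is found in many cell types and was narrower, at 64.8, 33.2, 75.4 and 107 CPM in mutants and 42.5, 31.7, 62.3 and 51.5 CPM in wild types. Their log2 fold changes were -0.24 ± 0.86 and 0.58 ± 0.35 (edgeR adjusted p = 0.969 and 0.707).

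ncf1, the organizing cytosolic subunit of the oxidase, did not run with cybb. It was at 135, 13.0, 88.7 and 125 CPM in mutants and 50.2, 25.9, 30.8 and 113 CPM in wild types. Mutant 2 was lowest but 3 of 4 mutants were above 3 of 4 wild types, and the log2 fold change was 0.72 ± 0.67 (edgeR adjusted p = 0.822).

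Genes more particular to neutrophils were low and uneven. mpx, encoding myeloperoxidase, had 302, 9, 209 and 294 counts in mutants and 35, 0, 488 and 249 counts in wild types, so it was near or at 0 in mutant 2 and wild type 2, and its log2 difference was 0.27 ± 1.28 (edgeR adjusted p = 0.979). lyz, encoding lysozyme, had 778 counts in wild type 3 and at most 22 in each other library, and failed the filter. csf3r, the receptor for granulocyte colony-stimulating factor, was at 10.6, 2.55, 21.6 and 38.7 CPM in mutants and 30.9, 19.5, 13.0 and 12.4 CPM in wild types, a log2 difference of -0.04 ± 0.67 (edgeR adjusted p = 0.993).

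Lymphocyte genes were mostly at or near 0. Of 10, 4 were tested, all with negative log2 fold changes, a median of -0.79 and no call. The 10 summed to 40.8, 6.50, 31.5 and 61.9 CPM in mutants, against 86.2, 40.2, 48.4 and 10.8 CPM in wild types, and il2rb, an interleukin receptor chain of T and natural killer cells, gave 77.4% of the counts of the class. It was at 25.9, 4.99, 22.7 and 55.6 CPM in mutants, against 68.7, 31.8, 35.8 and 5.56 CPM in wild types. Mutant 2 and wild type 4 were low, and the log2 fold change was -0.38 ± 0.75 (edgeR adjusted p = 0.938).

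zap70, a kinase of T-cell receptor signalling, had 289, 19, 140 and 71 counts in mutants and 230, 117, 205 and 69 counts in wild types, and a log2 difference of -0.18 ± 0.74 (edgeR adjusted p = 0.973). cd8a, the co-receptor of cytotoxic T cells, had 0, 0, 1 and 18 counts in mutants and 38, 36, 19 and 8 in wild types, a log2 difference of -2.65 ± 1.36 (edgeR adjusted p = 0.636). cd79a, a signalling chain of the B-cell receptor, had 5, 0, 31 and 32 counts in mutants and 48, 31, 70 and 6 in wild types.

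rag1, a recombinase gene of immature lymphocytes, and lck, a T-cell kinase gene, had 0 counts in all 8 libraries. That allows a level of up to 0.0334 CPM over the mutant group and 0.0311 CPM over wild type, from 3 counts per group, for counting error only. rag2, the partner of rag1, had 17 counts over the mutants and 68 over the wild types, 61 of them in wild type 3. cd4-1, the co-receptor gene of helper T cells, had 63 counts in mutants and 57 in wild types, pax5, a B-cell transcription factor gene, had 17 and 28, and cd79b, the partner of cd79a, had 18 and 24.

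Low counts of some members cannot be read as absent expression. Of the 11 members with a row that were not tested, 6 were on more than 1 row (coro1a, mpeg1.1, lyz, lck, cd4-1 and cd79b), against 2 of the 25 tested. The sources used here do not say how reads that fit more than 1 row were handled.

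Most members were low in the same library. In mutant 2, 19 of the 25 tested members were under 25% of their median over the other 7 libraries, from 0 for cd79a and cd8a, 0.885% for csf1rb and 3.70% for fcer1g up to 19.3% for rac2. Between 25% and 75% lay arpc1b, cyba and ncf4, and above 75% lay srgn, grna.1 and mpeg1.2, at 111%, 128% and 185%. Genes noted above as also known from other cells lay in each of these ranges. arpc1b and cyba were between 25% and 75%, srgn and grna.1 above 75%, and plek and csf1ra at 7.38% and 4.48%. Whether other cells gave these reads was not tested. Mutant 2 was the lowest library for 19 of the 25 and mutant 4 the highest for 14. The matching shares over all genes were not computed, so these counts do not set the members apart from other genes. Mutant 2 also had the fewest total counts, 18891079, and the fewest genes with 10 or more counts, 15512. Wild type 4 was close on both, at 19584695 and 15881, and its 36 genes summed to 2122 CPM.

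The median member also varied more within groups than the median gene, though srgn, ncf4 and cd8a did not. On the log2(CPM + 1) scale the median SD between libraries of a group was 1.28 over the 25 members, against 0.50 over all genes tested and 0.45 over the 9 tested genes of the epicardial list. Without mutant 2 it was 0.75 for the members and 0.48 for all genes. These are descriptions of these libraries, and the median level of the members, 5.26 on that scale, was above the 3.62 of all genes. Nor was wide scatter particular to the members. The median standard error of the log2 fold change, 0.73 for them, was 1.03, 0.88 and 0.86 for the mural, thrombocyte and red cell lists below. For the 4 other leukocyte lists it was 0.79. The endothelial, cardiomyocyte, epicardial and fibroblast lists were lower, at 0.53, 0.55, 0.30 and 0.28.

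Set against lcp1 in the same library, members ranged from a nearly steady ratio to a very uneven one, without a clear break between them. spi1b was at 17.9, 13.1, 18.3 and 16.7 counts per 100 lcp1 counts in mutants and 18.0, 15.4, 16.2 and 15.9 in wild types, a range of 1.40 times across libraries whose lcp1 level spanned 20.2 times. rac2 and spi1a spanned 2.40 and 2.12 times on that scale. Besides lcp1, ratios of 9 of 24 tested members stayed within 5 times, and spi1b was the steadiest of them. The matching share over all genes was not computed, so the count is no result about the members.

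mpeg1.2 was at 129, 161, 6.37 and 4.74 counts per 100 lcp1 counts in mutants 1 to 4, against 12.1, 9.78, 4.66 and 6.07 in wild types. grna.1 was at 48.3, 41.2, 3.58 and 2.76 in mutants and 2.89, 2.01, 0.946 and 2.81 in wild types. On this scale mutants 1 and 2 were the highest for both genes. The ratio in mutant 2 stands on an lcp1 level that was 9.18% of its median over the other 7 libraries, which raises the ratio of any gene that was not as low there, such as srgn at 503 and arpc1b at 595 counts per 100 lcp1 counts. In CPM, mpeg1.2 was at 51.1 in mutant 2 and 48.0 in wild type 1, and grna.1 was lower in mutant 2 than in mutant 4. Mutants 1 and 2 were both above the other 6 libraries for 7 of 24 members, the others being srgn, arpc1b, hcls1, ncf1 and zap70. The share of all genes with that order was not computed, so the count is no result about the members. lcp1 itself was lowest in mutants 2 and 1, at 31.8 and 258 CPM, but mutant 1 was close to wild type 2 and mutant 3, at 283 and 286 CPM. A low lcp1 level therefore lifts ratios far more in mutant 2 than in mutant 1. ncf1 was at 52.2, 40.9, 31.0 and 19.4 in mutants and 12.7, 9.13, 5.57 and 32.6 in wild types.

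**Figure D5:**
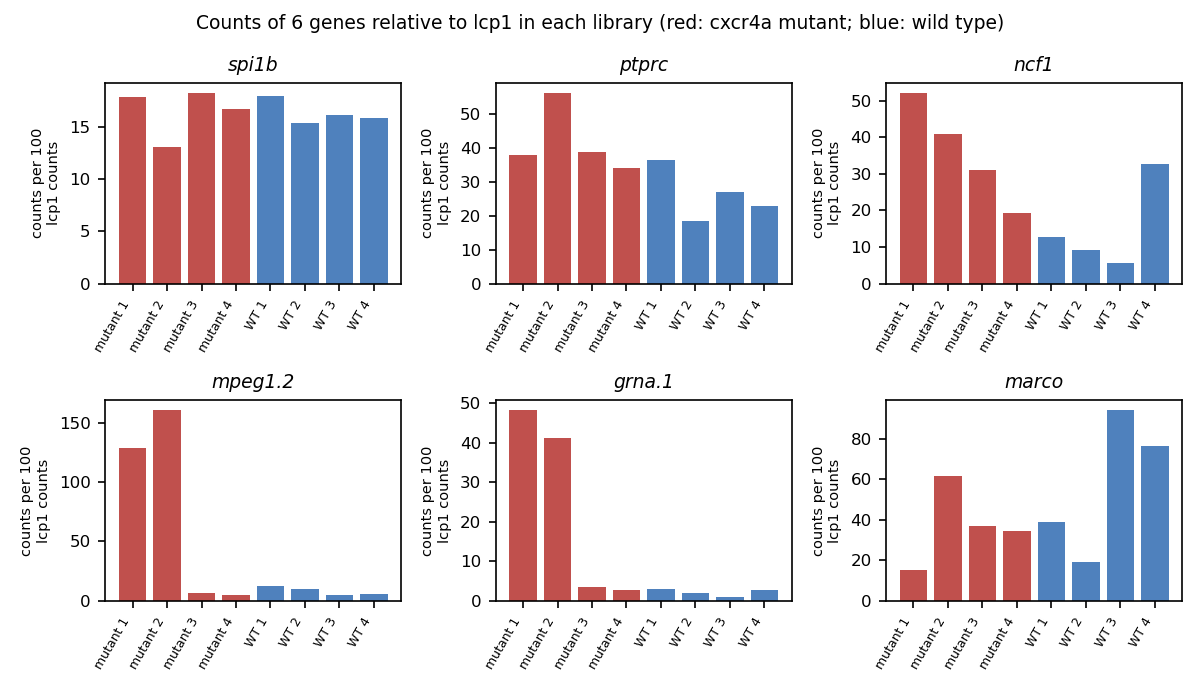
Counts of 6 genes per 100 lcp1 counts (vertical axes, each starting at 0) in each library, mutants in red on the left and wild types in blue on the right. spi1b keeps nearly the same ratio throughout, from 13.1 to 18.3, while mpeg1.2 and grna.1 are high in mutants 1 and 2 and low in the other 6 libraries.

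Another 80 leukocyte genes, none of them among the 39, were listed by lineage, and 74 had a row. Of these, 59 were tested, and edgeR called none, with 2 at an unadjusted p under 0.05, both higher, against 8.64% of all genes at that level and 5.09% higher. The median log2 fold change was 0.02, with 30 positive and 29 negative. The 17 tested pan-leukocyte genes summed to 677, 278, 780 and 1446 CPM in mutants and 1014, 532, 963 and 720 CPM in wild types, with mutant 2 lowest and mutant 4 highest. The other macrophage and dendritic cell genes had the same extremes, at 966, 584, 1125 and 1367 CPM in mutants and 1228, 860, 1266 and 995 CPM in wild types. The other neutrophil and mast cell genes did not, at 3083, 3131, 1914 and 2289 CPM in mutants and 2086, 2089, 1903 and 1792 CPM in wild types, with mutant 2 highest. Most of that sum in mutant 2 came from the transcription factor genes cebpb and cebpa, at 2422 and 674 CPM. In the same list npsn, illr4 and scpp8 had 0 counts in mutant 2, while cfl1l was highest there, at 15.6 CPM. The other lymphocyte genes were at 455, 48.2, 225 and 289 CPM in mutants and 144, 60.6, 231 and 84.0 CPM in wild types, with mutant 1 highest. All 4 lists together were lowest in wild type 2, at 3542 CPM, not in mutant 2, at 4041 CPM. Of these sums cebpb and cebpa gave 554 and 1522 CPM in wild type 2, and 2422 and 674 CPM in mutant 2. The order of the 2 sums therefore leans on these 2 genes, and not on the 4 lists as a whole.

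The 3 genes of smallest p in each of these lists did not share 1 order of libraries. mmp13a, a matrix metalloproteinase gene also made by other cells, was at 96.6, 2.44, 0.954 and 3.84 CPM in mutants, against 1.47, 0, 4.19 and 0 CPM in wild types (log2 fold change 4.16 ± 1.82, edgeR adjusted p = 0.562). ighd, an immunoglobulin heavy chain gene of B cells, was at 357, 1.16, 92.3 and 105 CPM in mutants and 5.11, 1.79, 51.8 and 0.238 CPM in wild types (log2 fold change 3.23 ± 1.60, edgeR adjusted p = 0.616). Mutant 1 was the highest library for both. cebpb, a transcription factor gene of myeloid and many other cells, was at 2320, 2422, 739 and 1136 CPM in mutants, against 950, 554, 1140 and 936 CPM in wild types (log2 fold change 0.89 ± 0.40, edgeR adjusted p = 0.580). cd28, a T-cell costimulator gene, was at 0.857, 5.34, 3.12 and 1.33 CPM in mutants and 1.00, 0.523, 0.359 and 0.238 CPM in wild types (log2 fold change 2.32 ± 0.82, edgeR adjusted p = 0.472). Mutant 2 was the highest library for cebpb and cd28, and also for cfl1l and il10rb. Of the remaining 8, cfl1l, irf8, il10rb and inpp5d had positive log2 fold changes of 1.04 ± 0.54, 0.45 ± 0.32, 0.49 ± 0.28 and 1.37 ± 0.88. Those of trac, batf3, slc40a1 and fermt3b were -0.86 ± 0.59, -0.78 ± 0.62, -0.54 ± 0.47 and -0.89 ± 0.72. The edgeR adjusted p of these genes ran from 0.636 for cfl1l to 0.805 for slc40a1.

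Summed levels of markers of other cells were set beside these values. edgeR called none of these markers, where 0.0481% of all genes tested were called. The 11 epicardial genes with a row, of 12, were at 7236 to 10193 CPM in mutants and 7826 to 10741 CPM in wild types in the sum. Of that sum, krt4 gave 3622 CPM in mutant 2, 1000 to 1031 CPM in the other mutants and 1777 to 2681 CPM in wild types. The 8 mural genes were at 832 to 10508 CPM in mutants and 577 to 5563 CPM in wild types, with the top value in mutant 2, of which acta2 gave 6182 CPM. Wild types 3 and 4 were also high, at 4434 and 5563 CPM, of which acta2 gave 2188 and 3300 CPM. The remaining libraries were at 577 to 1550 CPM. The 6 endothelial genes with a row, of 8, were at 109 to 186 CPM in mutants and 66.7 to 216 CPM in wild types.

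The 7 red cell genes were at 2822 to 7636 CPM in mutants and 671 to 12359 CPM in wild types, and mutant 2 was at 3713 CPM. The 6 thrombocyte genes were at 155 to 355 CPM in mutants and 47.9 to 252 CPM in wild types. The 9 cardiomyocyte genes with a row, of 10, were at 329 to 1895 CPM in mutants and 278 to 595 CPM in wild types, and the 8 fibroblast genes at 44753 to 70009 CPM in mutants and 42206 to 53481 CPM in wild types. All 8 tested cardiomyocyte genes had positive log2 fold changes, with a median of 1.17. Of them, 4 had an unadjusted edgeR p under 0.05, against 8.64% of all genes. Each other list of these cells had 0 or 1 such gene. The cardiomyocyte sum was high only in mutants 3 and 4, at 1895 and 1180 CPM. Mutants 1 and 2, at 329 and 530 CPM, lay inside the wild-type range. The part of these other cells in the leukocyte results was not tested.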

How the data were processed

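Sorted-cell RNA went into SMART-Seq v4 amplification and Nextera XT library preparation, per the labels' protocols; this chemistry does not mark strand. The authors deposited raw counts, whole numbers of reads for each symbol without scaling, in 53709 rows per library. The submitters' processing notes name cutadapt 5.2, STAR 2.7.11a, HTSeq and GRCz11, with no parameters or annotation release known here.

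Rows of a symbol (added _1, _2) were summed. The quasi-likelihood test of edgeR 4.0.16, run in R 4.3.3 on these counts, had genotype as its only term over 8 libraries, after filterByExpr and TMM scaling, and p-values were adjusted over all 16631 genes. Standard errors came from the F statistic; levels are TMM-scaled CPM. DESeq2 1.42.0, limma voom 3.58.1, other scalings and filters, a replicate block and leaving out libraries were alternatives. The edgeR step was tested on simulated counts. No pair of libraries within a group agreed within sampling noise; pairs across groups were not compared. Older names came from RefSeq (GRCz12tu). All 36 members with a row, of 39 listed, are accounted for; of other lists, the 3 genes of lowest p or fewer are named. Members and lists were chosen with earlier results of these data known. Amplified reads are not independent molecules, and floors therefore allow for counting error alone.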

Additional observations from a re-analysis of the deposited data

Results flagged for a closer look

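Within each group of 4 libraries, 4 of 58 checks over the 25 tested genes and the 4 class sums found a library far from the other 3. Chance gives about 1 in 20 such flags for independent, normally distributed values, which levels of genes that move together are not. mpeg1.2 was at 332 CPM in mutant 1 and at 18.2 to 51.1 CPM in the other mutants. grna.1 was at 124 CPM in mutant 1 and at 10.2 to 17.7 CPM in the other mutants. cd8a was at 0.628 CPM in mutant 4, from 18 counts, and at 0 to 0.0434 CPM in the other mutants. The summed neutrophil level was 135 CPM in wild type 2, against 269 to 274 CPM in the other wild types.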

How the results depend on the processing

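edgeR called 8 genes over all and 0 members. Genes called numbered 468 with DESeq2, 0 with limma voom, 0 with the replicate block, 63 with rows as deposited, 0 without mutants 1 and 2, which was chosen after seeing the data, and 0 to 9 without single libraries. Genes at an unadjusted p under 0.05 were 1605 with voom, 1320 with the replicate block and 1059 without mutants 1 and 2. Members called numbered 1 with rows as deposited, which was the plain row of srgn, and 0 under each other alternative. Replicate numbers showed no clear pairing: deviations of same-numbered libraries correlated at -0.08 to 0.08, and those of other pairs at -0.12 to 0.20. The highest was mutant 4 with wild type 3. With 4 libraries per group, these values cannot exclude pairing. The replicate block changed no member's call. Of 448 log2 fold changes of members under alternatives, 53 had the other sign, in 17 of 25 members, none of them called. With voom the log2 fold change was -0.23 for ptprc, -0.53 for fcer1g, -1.6e-04 for hcls1, -0.21 for plek. With the replicate block the log2 fold change was -0.29 for ptprc, -0.68 for fcer1g, -0.14 for hcls1, -0.20 for plek. With rows as deposited the log2 fold change was -1.31 for the plain row of ncf4, the row compared here, and 1.05 for its row ncf4_1. With total counts only the log2 fold change was 0.11 for csf3r. Without mutants 1 and 2 the log2 fold change was 0.22 for lcp1, 0.27 for rac2, 0.33 for arpc1b, 0.52 for spi1a, 0.29 for spi1b, -0.34 for mpeg1.2, 0.73 for csf1rb, 0.66 for csf3r, 0.61 for cybb, 0.13 for il2rb. Without single libraries it ranged from -0.49 to 0.42 for ptprc, from -0.78 to 0.087 for rac2, from -0.51 to 0.19 for arpc1b, from -0.64 to 0.44 for fcer1g, from -0.45 to 0.49 for hcls1, from -0.98 to 0.14 for spi1a, from -0.92 to 0.077 for spi1b, from -0.89 to 0.29 for csf1rb, from -0.14 to 0.91 for mpx, from -0.71 to 0.31 for csf3r, from -1.41 to 0.14 for cybb, from -0.064 to 0.33 for ncf4, from -1.05 to 0.28 for zap70, from -0.99 to 0.16 for il2rb. The log2 ratio of class sums changed sign in each class when single libraries were left out, and ranged from -0.50 to 0.22 for pan-leukocyte, from -0.64 to 0.04 for macrophage, from -0.26 to 0.55 for neutrophil, from -0.82 to 0.084 for lymphocyte genes. Of the lymphocyte genes, 6 of 10 had too few counts to test. In DESeq2 the adjusted p of grna.1 was not given.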
